A study of Mus musculus with 6 samples.

Results

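The genes described here encode proteins that epithelial cells make at or for their surface. They and the gene lists set beside them were chosen by name, with earlier results of these data known. They are 9 of the 22556 genes with values: the membrane mucins Muc1, Muc4 and Muc20, the trefoil factors Tff1 and Tff2, the secreted phosphoprotein Spp1 (osteopontin), the surface glycoproteins Epcam and Cd24a, and the small proline-rich protein Sprr1a. RNA from the whole pancreas of wild type C57BL/6 mice at postnatal week 8 was sequenced in 3 groups of 2 mice. The groups received saline, cerulein (caerulein; the AP mice, for acute pancreatitis) or polyI:C plus cerulein (the polyI:C-AP mice). According to the study's methods, mice were fasted, polyI:C or saline was injected intraperitoneally before hourly caerulein injections, and tissue was taken the day after the first of them. Each sample is RNA of a mixed tissue, and a group given polyI:C without caerulein was not analysed here. The labels number the samples of a group but do not describe how they were obtained, so the p-values measure the spread between these samples.

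Caerulein is an analogue of the hormone cholecystokinin, and repeated high doses overstimulate the acinar cells, which make the digestive enzymes, and cause acute pancreatitis. PolyI:C is a synthetic double-stranded RNA that mimics a virus and is sensed by Toll-like receptor 3. In an injured pancreas, acinar cells can lose their enzyme programme and take on features of duct cells, a reversible change called acinar-to-ductal metaplasia. Membrane mucins are long, heavily O-glycosylated proteins that cover the apical surface of epithelia, and trefoil factors are small secreted peptides that act with mucins in mucosal repair. Epcam is an adhesion molecule of epithelial cells, Cd24a is a small, heavily glycosylated surface protein, Spp1 is a secreted ligand of integrins and Cd44, and Sprr1a is a cross-linked precursor of the cornified envelope that is also known as an injury-induced gene.

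The values are TPM (transcripts per 1000000), that is, reads per gene scaled to the gene's length and then to the same total in every library. The spacing of low values pointed to about 3302352 to 3978639 reads behind the saline libraries and 6940203 to 10864563 behind the other 4, so low genes were measured least precisely in the saline mice. Since all genes of a library share 1 total, a change in its most abundant transcripts moves every other TPM value. The median of all 16814 genes tested was 0.45 higher (log2) in AP than in saline mice, 0.48 higher in polyI:C-AP than in saline mice, and 0.039 higher in polyI:C-AP than in AP mice. A gene is called raised or reduced where limma, fitted to all 6 mice, gave an adjusted p no higher than 0.05 and the groups differed at least 2-fold on the log2(TPM + 0.5) scale. With 2 mice per group, an exact permutation test of a single gene cannot give a two-sided p below 0.333.

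The library of polyI:C-AP replicate 2 stood apart from the others and held intestinal transcripts. The summed level of 8 intestinal markers was 1852 TPM there, against 12.0 to 32.7 TPM in the other 5 libraries. All 8 markers were above 1 TPM in that library. Fabp2, the fatty acid carrier of enterocytes, was at 1083 TPM there, and the intestinal transcription factors Cdx1 and Cdx2 were at 10.7 and 14.6 TPM where every other library was at 0. Epcam, Cd24a and several mucins are also made by intestinal epithelium. The values of polyI:C-AP mice are therefore given for each library. A fit without replicate 2 leaves 1 mouse in that group, so a call lost there cannot be laid to that library.

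**Figure D1:**
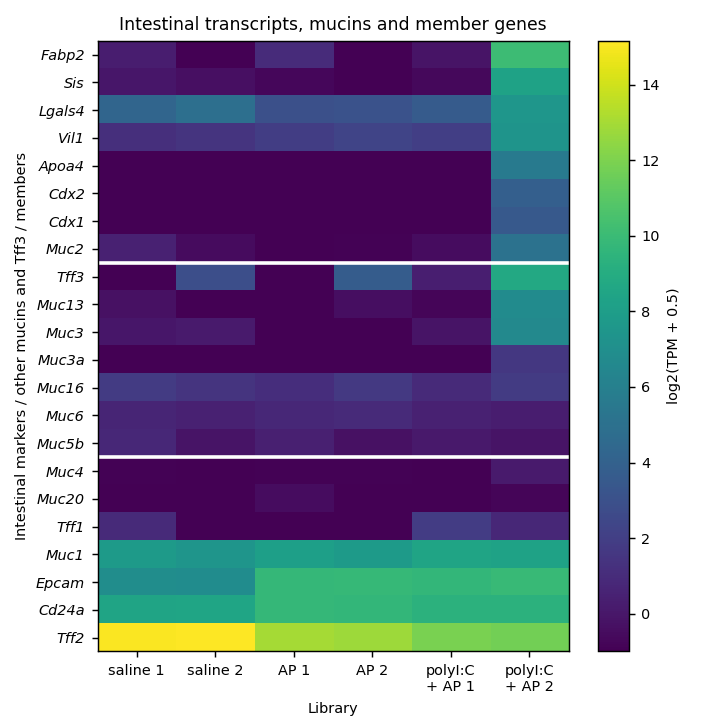
Levels of the 8 intestinal markers, Tff3 with 6 further mucins, and 7 of the member genes (rows) in the 6 libraries (columns), as log2(TPM + 0.5) in colour. The intestinal markers and Tff3, Muc2, Muc3 and Muc13 stand out in polyI:C-AP replicate 2 alone, whereas Muc1, Epcam, Cd24a and Tff2 have similar colours in both polyI:C-AP libraries.

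Promoters from RefSeq (GRCm38.p6), spanning 250 bases before to 50 after the start site, were matched for 6 members (Muc1, Muc4, Muc20, Spp1, Epcam and Sprr1a). Tff1, Tff2 and Cd24a had no entry. Those of Sprr1a, Epcam and Spp1 are shown because all 3 genes were raised in AP mice, and Sprr1a was reduced with polyI:C whereas Epcam and Spp1 did not pass in that comparison. The Sprr1a promoter is at chr3:92485832-92486131 on the minus strand and the Epcam promoter at chr17:87635729-87636028 on the plus strand. For Spp1, the first of 2 listed promoters is given, at chr5:104434861-104435160 on the plus strand. All are written 5′ to 3′ on the gene's strand, and capitals mark matches to the AP-1 motif TGANTCA and the TATA box TATAAA.
Sprr1a: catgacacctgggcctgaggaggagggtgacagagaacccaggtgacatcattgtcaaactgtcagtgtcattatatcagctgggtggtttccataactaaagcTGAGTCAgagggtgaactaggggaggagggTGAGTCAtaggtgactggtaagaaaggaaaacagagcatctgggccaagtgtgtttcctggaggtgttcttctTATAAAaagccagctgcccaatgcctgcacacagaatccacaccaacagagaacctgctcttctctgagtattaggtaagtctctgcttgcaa
Epcam: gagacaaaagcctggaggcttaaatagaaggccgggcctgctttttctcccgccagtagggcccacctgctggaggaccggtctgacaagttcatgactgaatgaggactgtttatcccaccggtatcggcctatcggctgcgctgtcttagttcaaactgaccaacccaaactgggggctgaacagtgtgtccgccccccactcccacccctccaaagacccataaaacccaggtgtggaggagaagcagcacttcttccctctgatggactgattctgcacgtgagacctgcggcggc
Spp1: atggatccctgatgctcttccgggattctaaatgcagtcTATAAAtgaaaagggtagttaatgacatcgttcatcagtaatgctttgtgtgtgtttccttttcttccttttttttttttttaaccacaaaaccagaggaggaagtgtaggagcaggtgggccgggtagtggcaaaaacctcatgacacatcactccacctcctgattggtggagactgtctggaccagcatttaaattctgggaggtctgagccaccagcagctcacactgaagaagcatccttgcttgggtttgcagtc

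Sprr1a held 2 matches to the AP-1 motif, both TGAGTCA, with first bases 146 and 116 bases before the start site. Across all 32851 promoters of the same length, 7.81% held at least 1 AP-1 match on either strand and 0.460% held 2 or more. Its TATA box began 43 bases before the start. A TATA box was also found at -31 in Muc1, at -36 in Muc4 and at -211 in Spp1, and 13.6% of all promoters held 1. Neither of these motifs was found in the Epcam or Muc20 window. The STAT motif TTCNNNGAA, present in 8.30% of all promoters, was found in none of the members' windows. A match describes letters only, and it is not evidence of binding.

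Tff2 (ENSMUSG00000024028, chr17:31141049-31144282, GRCm38, minus strand) was by far the most abundant member. It was at 34940 and 36643 TPM in saline mice, 8229 and 7063 TPM in AP mice, and 3902 and 3388 TPM in polyI:C-AP mice. In each saline library it was the third most abundant of all listed genes, with 3.49% and 3.66% of the TPM total, and in polyI:C-AP mice it ranked 22nd and 28th. Rank and share cover the genes with values only, and of 16 acinar markers only 6 had values. The 3 groups did not overlap, and the level stepped down from saline to AP and again to polyI:C-AP. Tff2 was reduced in AP against saline mice, with a log2 fold change of -2.23 (SE 0.12, 95% confidence interval -2.53 to -1.94, adjusted p = 7.9e-05), or -2.68 relative to the median of all genes. In whole tissue, fewer cells that make a transcript and less of it per cell cannot be told apart.

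With polyI:C pretreatment, Tff2 was lower again by a log2 fold change of -1.07 against AP mice (SE 0.12, 95% confidence interval -1.36 to -0.77, adjusted p = 0.020). The call was lost in 5 of 6 fits that left out 1 mouse, with log2 fold changes of -0.96 to -1.18 and adjusted p of 0.055 to 0.35 in those 5. The call stayed only without saline replicate 1. Against saline mice the log2 fold change was -3.30 (adjusted p = 2.5e-05). The direction of all 3 differences was the same under every alternative tried.

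Acinar transcripts also changed between the groups. Of 16 acinar markers, 6 had values and the other 10, mostly digestive enzymes, were not analysed here. Their summed level was 13016 and 13327 TPM in saline mice, 4058 and 3349 TPM in AP mice, and 4498 and 3933 TPM in polyI:C-AP mice, nearly all of it from Cuzd1, a zymogen granule membrane protein. Bhlha15 (Mist1), a transcription factor of mature acinar cells, was at 391 and 326 TPM in saline, 53.6 and 46.4 TPM in AP and 161 and 171 TPM in polyI:C-AP mice. It was reduced in AP mice (log2 fold change -2.83, adjusted p = 3.9e-05) and raised by polyI:C against AP mice (1.73, adjusted p = 0.0040). Rbpjl, a subunit of the acinar transcription complex PTF1, was also raised in the latter comparison (1.08, adjusted p = 0.033). Of the 6 markers, 3 were reduced and none raised in AP against saline mice, beside 4.03% and 18.2% of all genes. Ptf1a (log2 fold change 0.20) and Nr5a2 (0.16) were not lower there, and Gata4 (-0.76) fell by less than 2-fold. In polyI:C-AP against AP mice 2 of the 6 were raised and none reduced, beside 0.440% and 0.404% of all genes. A fit without polyI:C-AP replicate 2 leaves 1 mouse in that group, so it cannot decide whether these rises rest on that library. The part of acinar content in the Tff2 values was not tested.

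Tff1 (ENSMUSG00000024032, chr17:31161395-31165277, minus strand), the gastric relative of Tff2, lies 17113 bases from it and was near the limit of detection. It was listed at 1.43 and 0 TPM in saline mice, at 0 in both AP mice, and at 3.19 and 1.27 TPM in polyI:C-AP mice. These values correspond to about 1.5 reads in the first saline library and 5.9 and 2.9 reads in the polyI:C-AP libraries. Its mean of 0.98 TPM was just under the minimum of 1 TPM for testing. Tff3, on the other side of Tff2, was at 0 to 12.8 TPM in 5 libraries and at 439 TPM in polyI:C-AP replicate 2. In those 5 libraries Tff2 was the only abundant gene of this trefoil cluster. Stomach markers, summed over the 6 of 9 with values, reached 16.6 and 43.0 TPM in polyI:C-AP mice against 1.10 to 5.67 TPM in the other 4, and their part in the Tff1 values was not tested.

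Among the membrane mucins, Muc1 (ENSMUSG00000042784, chr3:89229057-89233381, plus strand) carried nearly all of the signal. Its level was 226 and 174 TPM in saline mice, 277 and 221 TPM in AP mice, and 350 and 313 TPM in polyI:C-AP mice. Saline and AP mice overlapped, and both polyI:C-AP mice were above the other 4. Muc1 was neither raised nor reduced in AP against saline mice (log2 fold change 0.32, SE 0.16, 95% confidence interval -0.077 to 0.71, adjusted p = 0.17). The sign of that difference depended on scaling: it was -0.13 relative to the median of all genes. Between polyI:C-AP and AP mice the log2 fold change was 0.42 (95% confidence interval 0.028 to 0.81, adjusted p = 0.33). Against saline mice it was 0.74 (95% confidence interval 0.34 to 1.13, adjusted p = 0.013), a 1.67-fold difference below the 2-fold minimum, and 0.25 relative to the median of all genes.

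Muc4 (ENSMUSG00000079620, chr16:32735886-32782391, plus strand), a membrane mucin known as a partner of Erbb2, was hardly detected. It was at 0.028 and 0 TPM in saline, 0.038 and 0.045 TPM in AP, and 0.015 and 0.63 TPM in polyI:C-AP mice. The last value, about 24.3 reads, came from the library with intestinal transcripts, and every other library had at most about 1.4 reads. Muc20 (ENSMUSG00000035638, chr16:32777419-32797435, minus strand) was listed at 0 in 4 libraries, at 0.23 TPM in AP replicate 1 and at 0.075 TPM in polyI:C-AP replicate 2, about 2.0 and 1.0 reads. Both genes overlap by 4973 bases on opposite strands. Whether counting used the strand is not given in the sources used here, so reads in the overlap could belong to either. Muc4, Muc20 and Tff1 were not tested because of their low mean. Without a filter on low values, none of the 3 had an adjusted p under 0.27 in any comparison.

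The other mucins were also scarce outside 1 library. Of 11 listed (10 other mucins and Tff3), 10 had values and 6 were tested. None of the 6 was raised or reduced in any comparison, and none passed at an unadjusted p of 0.05 or in limma-voom on estimated reads. Muc2, Muc3 and Muc13 reached the minimum for testing only through polyI:C-AP replicate 2. The spread it gave them (SE 1.56, 1.86 and 2.10) enters every comparison, so the lack of a call cannot decide whether they changed. The summed level of the 10 genes with values was 3.99 to 17.9 TPM in 5 libraries and 688 TPM in polyI:C-AP replicate 2. There, Muc13 was at 113 TPM, Muc3 at 95.5 TPM and Muc2, the secreted mucin of goblet cells, at 33.7 TPM. The median log2 fold change of polyI:C-AP against AP mice was 3.23 over the 6 genes, and -0.46 over the 3 still tested without that library.

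**Figure D2:**
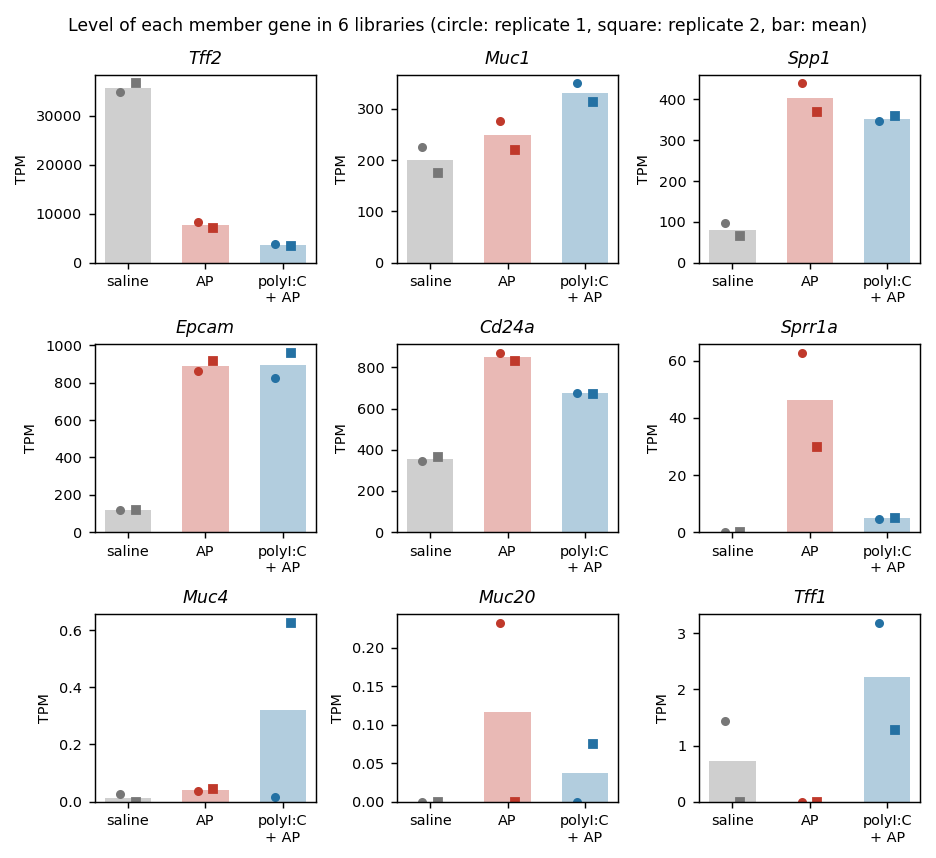
TPM of each of the 9 genes in the 2 saline, 2 AP and 2 polyI:C-AP mice, with linear axes from 0 that differ between panels, circles for replicate 1, squares for replicate 2 and bars for the mean. Tff2 steps down through the groups, Epcam and Spp1 are high in all 4 caerulein-treated mice, Sprr1a is high in the AP mice alone, and Muc4, Muc20 and Tff1 stay below 4 TPM.

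Epcam (ENSMUSG00000045394, chr17:87635979-87651129, plus strand) was at 120 and 117 TPM in saline mice, 864 and 916 TPM in AP mice, and 826 and 959 TPM in polyI:C-AP mice. All 4 caerulein-treated mice were thus far above both saline mice, and the 2 caerulein groups overlapped. Epcam was raised in AP against saline mice, with a log2 fold change of 2.90 (SE 0.10, 95% confidence interval 2.66 to 3.15, adjusted p = 2.2e-05), which is 7.48-fold, or 2.45 relative to the median of all genes. Between polyI:C-AP and AP mice the log2 difference was 0.00070 (95% confidence interval -0.24 to 0.24, adjusted p = 1). Without polyI:C-AP replicate 2 that difference was -0.11.

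Cd24a (ENSMUSG00000047139, chr10:43578284-43584265, plus strand) was at 345 and 367 TPM in saline mice, 870 and 831 TPM in AP mice, and 677 and 673 TPM in polyI:C-AP mice. The 3 groups did not overlap, with polyI:C-AP mice in between. It was raised in AP against saline mice with a log2 fold change of 1.26 (SE 0.084, 95% confidence interval 1.06 to 1.46, adjusted p = 0.00014), or 2.39-fold. Relative to the median of all genes this was 0.81, and with libraries scaled by median of ratios it was 0.83, below the 2-fold minimum. The fall from AP to polyI:C-AP mice did not pass (log2 fold change -0.33, 95% confidence interval -0.53 to -0.13, adjusted p = 0.14). Cd24a is also made by B cells and neutrophils. Summed B and T cell markers reached at most 18.3 TPM in saline, 47.9 TPM in AP and 10.9 TPM in polyI:C-AP mice, and the lowest of the 6 libraries was at 4.17 TPM. Summed neutrophil markers were 5.15 and 16.6 TPM in saline, 63.1 and 71.0 TPM in AP and 21.4 and 45.2 TPM in polyI:C-AP mice, and the part of either cell type in the Cd24a values was not tested.

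Spp1 (ENSMUSG00000029304, chr5:104435118-104441050, plus strand) was at 98.0 and 64.1 TPM in saline mice, 439 and 370 TPM in AP mice, and 348 and 358 TPM in polyI:C-AP mice. Both caerulein groups were well above saline. Spp1 was raised in AP against saline mice with a log2 fold change of 2.34 (SE 0.20, 95% confidence interval 1.86 to 2.82, adjusted p = 0.00030), which is 5.06-fold, or 1.89 relative to the median of all genes. The difference between polyI:C-AP and AP mice was -0.19 (95% confidence interval -0.67 to 0.28, adjusted p = 0.74). Of its exonic stretches of 100 bases, 5.85% are shared with Gm42793.

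Spp1 is made by duct cells and by activated macrophages. Summed over 12 macrophage markers, the level was 775 and 502 TPM in saline, 2835 and 3283 TPM in AP, and 835 and 686 TPM in polyI:C-AP mice. In AP against saline mice 10 of the 12 were raised and none reduced, beside 18.2% and 4.03% of all genes, and 9 were raised with median-of-ratios scaling. Between polyI:C-AP and saline mice 4 were raised (Cd14, Cd68, Fcgr1 and C1qa) and 2 reduced (Lyz2 and Csf1r), beside 16.9% and 2.97% of all genes. With median-of-ratios scaling these counts were 3 raised and 4 reduced. Cd14, a co-receptor for bacterial lipopolysaccharide, was at 15.7 and 13.9 TPM in saline, 218 and 222 TPM in AP and 216 and 209 TPM in polyI:C-AP mice. Lyz2, the lysozyme of macrophages and neutrophils, made up much of the sum and was reduced in polyI:C-AP against AP mice (log2 fold change -3.68, adjusted p = 0.0044). In that comparison 6 of the 12 macrophage markers were reduced and none raised, beside 0.404% and 0.440% of all genes. With median-of-ratios scaling 6 were reduced. A fit without polyI:C-AP replicate 2 leaves 1 mouse in that group, so it cannot decide whether these calls rest on that library. The duct markers summed to 90.2 and 91.9 TPM in saline, 1064 and 1098 TPM in AP and 821 and 898 TPM in polyI:C-AP mice. Nearly all of that was Krt19, at 51.2 and 62.4 TPM in saline, 1016 and 1041 TPM in AP and 767 and 769 TPM in polyI:C-AP mice. Of the 7 duct markers, 3 were raised and none reduced in AP against saline mice, beside 18.2% and 4.03% of all genes. They were Krt19 (log2 fold change 4.17, adjusted p = 1.3e-05), the chloride channel Cftr (2.01, adjusted p = 0.024) and Krt7 (1.29, adjusted p = 0.0090). With median-of-ratios scaling 1 of the 7 was raised. None was called in polyI:C-AP against AP mice, at an unadjusted p or in limma-voom either. The part of either cell type in the Spp1 values was not tested.

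Sprr1a (ENSMUSG00000050359, chr3:92483952-92485895, minus strand) was listed at 0 in both saline mice, at 62.7 and 29.8 TPM in AP mice and at 4.73 and 4.89 TPM in polyI:C-AP mice. These levels correspond to about 108 and 65.1 reads in the AP libraries and about 10 and 13 reads in the polyI:C-AP libraries. Both AP mice were above both polyI:C-AP mice, which were in turn above saline. Sprr1a was raised in AP against saline mice (adjusted p = 0.00011) and in polyI:C-AP against saline mice (adjusted p = 0.0011, 0.12 in limma-voom), where no fold is given because saline was listed at 0. It was reduced in polyI:C-AP against AP mice, with a log2 fold change of -3.04 (SE 0.40, 95% confidence interval -4.01 to -2.08, adjusted p = 0.027), or 8.25-fold lower. That call was lost in each of the 6 fits that left out 1 mouse, with log2 fold changes of -2.51 to -3.57 and adjusted p of 0.055 to 0.35.

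Sprr1a is best known from squamous epithelium. The 5 of 7 squamous markers with values summed to 3.08 to 6.15 TPM in all 6 libraries, with AP mice at 3.08 and 3.87 TPM. Most of each sum was Krt10. Krt14 was listed at 0 in both saline mice, at 0.50 and 1.18 TPM in AP mice and at 1.89 and 1.61 TPM in polyI:C-AP mice. The part of squamous cells in the Sprr1a values was not tested. Of 21 listed small proline-rich and cornified envelope genes, 9 had values and 4 were tested, and Tgm1, Evpl and Tgm2 were raised in AP against saline mice, where 18.2% of all genes were raised. With median-of-ratios scaling 2 of the 4 were raised. Tgm1, a transglutaminase that cross-links envelope precursors, was at 0.22 and 0 TPM in saline, 4.51 and 5.35 TPM in AP and 0.86 and 0.88 TPM in polyI:C-AP mice. The log2 fold change of Tgm1 was 3.17 between AP and saline mice (adjusted p = 0.0016) and -1.99 in polyI:C-AP against AP mice (adjusted p = 0.092). Ivl, the envelope precursor involucrin, was listed at 0 in both saline mice, at 2.19 and 2.12 TPM in AP mice and at 0.79 and 0 TPM in polyI:C-AP mice. Its mean was too low for a test. Tgm2, the tissue transglutaminase, was at 32.7 and 24.4 TPM in saline and 57.9 and 67.5 TPM in AP mice (log2 fold change 1.13, adjusted p = 0.0020).

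Side by side, the 9 genes fell into several patterns. In AP against saline mice, of the 6 tested, 4 were raised (Spp1, Epcam, Cd24a and Sprr1a) and 1 was reduced (Tff2). Over all 16814 genes tested, 18.2% were raised and 4.03% were reduced. With median-of-ratios scaling, 1566 genes were raised and 1221 reduced in place of 3053 and 677. In polyI:C-AP against AP mice, none of the 6 was raised, also at an unadjusted p and in limma-voom, and 2 were reduced (Tff2 and Sprr1a), while 0.440% of all genes were raised and 0.404% reduced. Without polyI:C-AP replicate 2, no gene of 16589 was called in this comparison in either direction. In polyI:C-AP against saline mice, 3 members were raised (Spp1, Epcam and Sprr1a) and 1 was reduced (Tff2), against 16.9% and 2.97% of all genes, or 1325 raised and 982 reduced in place of 2838 and 500 with median-of-ratios scaling. The comparisons share mice and are not independent.

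**Figure D3:**
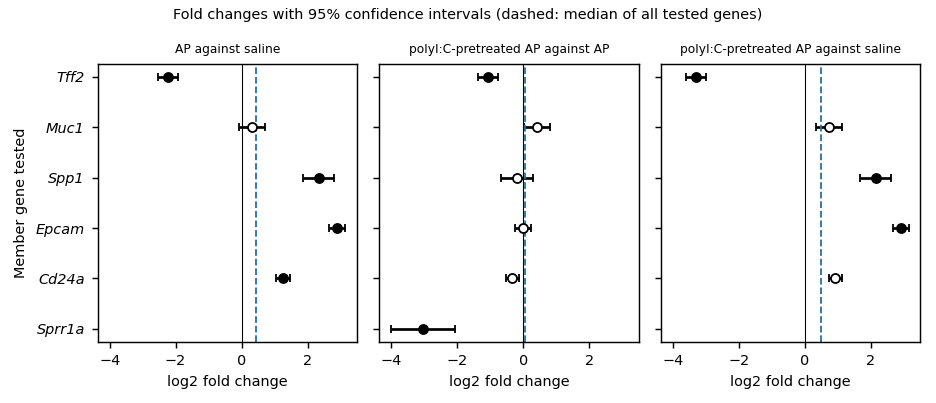
Log2 fold changes of the 6 tested genes with 95% confidence intervals in the 3 comparisons, filled where past the threshold, and the median of all genes tested as a dashed line, with Sprr1a left out against saline because it was listed at 0 there. In AP against saline mice Epcam, Spp1 and Cd24a lie to the right of the dashed line, Muc1 spans it and Tff2 lies at -2.23, and in polyI:C-AP against AP mice Tff2 and Sprr1a are the filled points, both left of 0.

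The order of levels by length-scaled TPM also differed. In saline mice Tff2 was followed by Cd24a at 356 TPM ± 15.7 (SD, n = 2), Muc1 at 174 and 226 TPM, Epcam at 119 TPM ± 2.37 and Spp1 at 81.1 TPM ± 24.0. In AP mice Epcam at 890 TPM ± 36.8 (SD, n = 2) and Cd24a at 851 TPM ± 27.1 came after Tff2 and did not differ beyond their spread. They were followed by Spp1 at 405 TPM ± 48.7, Muc1 at 249 TPM ± 39.8 and Sprr1a at 46.3 TPM ± 23.2. In polyI:C-AP mice the first 6 came in the same order, with Epcam at 893 TPM ± 93.8 (SD, n = 2), Cd24a at 675 TPM ± 2.54, Spp1 at 353 TPM ± 7.37, Muc1 at 331 TPM ± 25.8 and Sprr1a at 4.81 TPM ± 0.11. There, Spp1 and Muc1 overlapped within 1 SD. The members did not share 1 pattern, and metaplasia itself was not tested. Tff2 was highest in saline mice, Muc1 was neither raised nor reduced in AP against saline mice, and Muc4, Muc20 and Tff1 were close to 0 in every group.

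Among all genes that averaged 10 TPM or more, the profile closest to that of Epcam over the 6 mice was Sox4, a transcription factor, with a root mean square difference of 0.057 (log2). Sox4 was at 6.14 and 5.27 TPM in saline, 44.2 and 44.2 TPM in AP and 42.0 and 48.5 TPM in polyI:C-AP mice. Macc1 was next, with a difference of 0.11. Tff2 was closest to Aqp12 (0.20), a pancreatic aquaporin, and Slc39a5 (0.20), a zinc transporter. Aqp12 was at 1418 and 1450 TPM in saline, 383 and 343 TPM in AP, and 229 and 177 TPM in polyI:C-AP mice. Sprr1a had no close match, and its nearest profiles were Ccl2 (0.54) and Gm26340 (0.56). Ccl2, the chemokine that draws monocytes, was at 2.15 and 0.44 TPM in saline, 134 and 124 TPM in AP, and 12.0 and 18.3 TPM in polyI:C-AP mice. Spp1 was closest to Rhog (0.062) and Ccdc120 (0.099), Cd24a to Mul1 (0.037) and Otub1 (0.048), and Muc1 to Mrpl37 (0.060) and Ccdc28a (0.068).

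The receptors and membrane partners of these proteins were mostly higher in AP mice. Of 19 listed, 17 were tested, and 13 were raised and none reduced in AP against saline mice, with a median log2 fold change of 1.63. Over all genes tested, 18.2% were raised and 4.03% reduced, with a median of 0.45. With median-of-ratios scaling 9 were raised. Lgals3 (galectin-3), which binds mucin glycans, was at 4.92 and 6.95 TPM in saline mice, 165 and 167 TPM in AP mice, and 91.6 and 121 TPM in polyI:C-AP mice. Against saline, the AP mice had a log2 fold change of 4.71 (adjusted p = 3.4e-05). Cd44, a receptor of osteopontin and hyaluronan, was at 3.83 and 2.55 TPM in saline, 43.6 and 44.6 TPM in AP and 32.5 and 32.6 TPM in polyI:C-AP mice, with a log2 fold change of 3.62 (adjusted p = 4.9e-05). Cldn7, a tight junction protein that binds Epcam, rose by 2.61 (adjusted p = 5.5e-05). In polyI:C-AP against AP mice, Itga4, an integrin chain of leukocytes, was reduced (log2 fold change -1.78, adjusted p = 0.027). It was at 6.13 and 7.38 TPM in AP and 1.49 and 1.72 TPM in polyI:C-AP mice. A fit without polyI:C-AP replicate 2 leaves 1 mouse in that group and cannot decide whether this call rests on that library.

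Other surface genes of injured or duct-like epithelium were also mostly higher in AP mice. This list shares Cd44 and Tspan8 with that of the receptors and membrane partners, and Cd44 was counted as raised in both. Of 25 listed, 22 were tested, and 15 were raised and none reduced in AP against saline mice, with a median log2 fold change of 2.30, beside 18.2%, 4.03% and 0.45 for all genes, and 12 were raised with median-of-ratios scaling. Tspan1, a tetraspanin, was at 13.1 and 5.90 TPM in saline, 330 and 329 TPM in AP and 413 and 328 TPM in polyI:C-AP mice (log2 fold change 5.15 in AP against saline mice, adjusted p = 0.00011). Ly6d (4.60, adjusted p = 0.010) and Lcn2 (4.21, adjusted p = 0.0031), a secreted iron-scavenging protein, were next in size. In polyI:C-AP against AP mice, Ly6a (Sca-1), which interferon is known to induce, was the one gene of the list that was raised. It was at 9.72 and 12.9 TPM in saline, 61.8 and 85.9 TPM in AP and 375 and 429 TPM in polyI:C-AP mice (log2 fold change 2.45, adjusted p = 0.0058, not called without polyI:C-AP replicate 2).

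**Figure D4:**
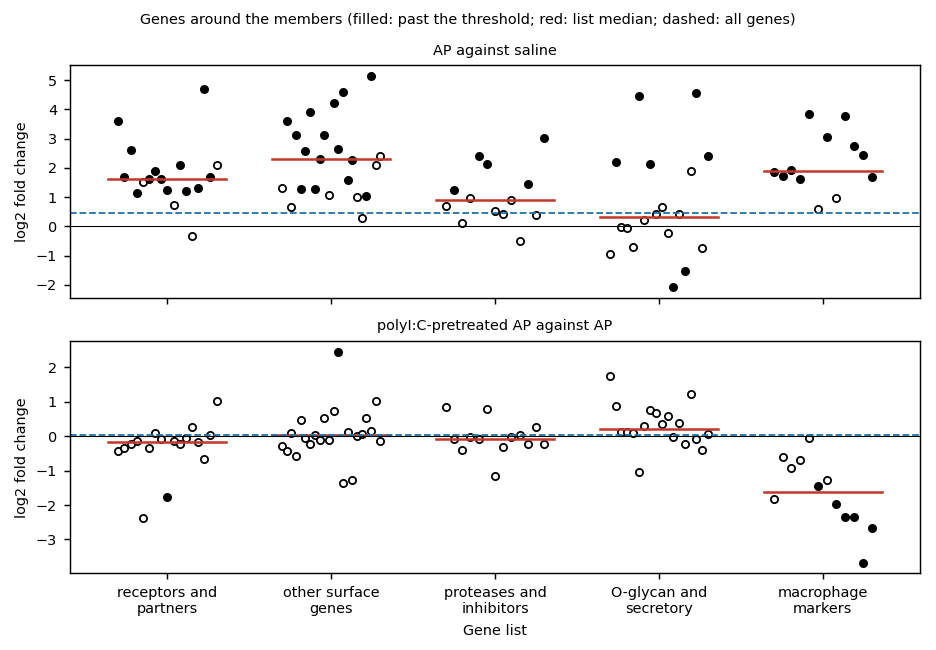
Log2 fold changes of the tested genes in 4 lists around the members and of the 12 macrophage markers, for AP against saline mice and for polyI:C-AP against AP mice, with filled points past the threshold, red bars for list medians and a dashed line for the median of all genes. For AP against saline mice the medians of the receptors (1.63) and the other surface genes (2.30) lie above the dashed line at 0.45, and for polyI:C-AP against AP mice Itga4, Ly6a and 6 macrophage markers are the filled points.

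Genes that build mucin glycans moved in both directions. Of 23 genes of O-glycan synthesis and mucin secretion, 18 were tested, and 5 were raised and 2 reduced in AP against saline mice, with a median log2 fold change of 0.31, beside 18.2% raised, 4.03% reduced and a median of 0.45 for all genes. With median-of-ratios scaling 5 were raised and 3 reduced. Gcnt4, which makes branched core 2 O-glycans, was at 0.13 and 0.66 TPM in saline, 20.8 and 18.5 TPM in AP and 18.5 and 18.2 TPM in polyI:C-AP mice (log2 fold change 4.55, adjusted p = 0.00011). Its relative Gcnt1, with the same activity, went the other way, from 38.9 and 41.2 TPM in saline to 14.0 and 13.1 TPM in AP mice (-1.53, adjusted p = 0.00077). Fut2, a fucosyltransferase of mucosal glycans, was raised (4.45, adjusted p = 0.00021), as was the sialyltransferase St3gal1 (2.41, adjusted p = 0.00076), and Galnt6, which starts O-glycans, was reduced (-2.09, adjusted p = 0.0011). In polyI:C-AP against AP mice none of the 18 was called, with 0 raised and 1 reduced at an unadjusted p and the same counts in limma-voom.

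Of 13 proteases and inhibitors known to cleave or protect surface proteins, all were tested, and 5 were raised and none reduced in AP against saline mice, with a median log2 fold change of 0.90, where all genes had 18.2% raised, 4.03% reduced and a median of 0.45. With median-of-ratios scaling 3 were raised. St14 (matriptase), a membrane protease of epithelia that cleaves Epcam, was at 22.4 and 21.9 TPM in saline, 188 and 180 TPM in AP and 172 and 142 TPM in polyI:C-AP mice (log2 fold change 3.02, adjusted p = 2.4e-05). The matrix metalloproteinases Mmp3 (2.40, adjusted p = 0.0024) and Mmp7 (2.13, adjusted p = 0.030), both of which cleave osteopontin, were also raised. None of the 13 was called in polyI:C-AP against AP mice, at an unadjusted p or in limma-voom either.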

How the data were processed

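RNA-seq of the pancreas of 6 mice was used, 2 per group, with groups taken from the labels. The authors used Trimmomatic for trimming, STAR for mapping to mm10 and htseq-count for counting, used DESeq2 for their tests, and deposited TPM values per gene. The step from counts to TPM is not given in the sources used here. TPM values were used as deposited, each table summing to 1000000, and a share of 51.1% to 62.0% of low values lay within 0.1 of a whole read, against 19.5% to 20.8% with gene lengths shuffled. The design foresaw TPM, so no count model was the main test.

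limma 3.58.1 (R 4.3.3) was fitted to log2(TPM + 0.5) of the 16814 genes that averaged 1 TPM or more, with a prior variance that follows log2(mean TPM × exon length + 1) and Benjamini-Hochberg adjustment over all genes tested in each comparison. In data simulated for AP against saline mice, 152 of 200 genes changed 4-fold were recovered, with 14 false calls among 16711 genes. The simulation assumed a dispersion of 0.05, as many rises as falls and no further difference between the groups. Its counts are therefore not error rates of the calls in the mice, and polyI:C-AP against AP mice was not simulated. Symbols, lengths and coordinates are from GENCODE M21 (GRCm38), which held 22490 of the 22556 identifiers. Besides the 9 members, the text names at most the 3 largest changes per list and comparison, the 2 nearest profiles of each member, chromosomal neighbours, and markers. Ivl and the reduced O-glycan genes Gcnt1 and Galnt6, which are outside that rule, were named after their values were seen. The members and lists were chosen with earlier results of these data known. Alternatives changed the pseudocount, filter, scaling, prior, test, replicate block, call rule and the mice included.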

Additional observations from a re-analysis of the deposited data

How the results depend on the processing

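For the 6 tested members, 266 of 288 values under the alternatives kept their direction and their side of the threshold. With median-of-ratios scaling, Muc1 in AP against saline mice was -0.11 and Epcam in polyI:C-AP against AP mice was -0.024. With a mouse left out the latter ran from -0.11 (without polyI:C-AP replicate 2) to 0.11, and it was -0.041 without AP replicate 1. Calls in polyI:C-AP against AP mice depended on the setting, and the cause was not tested. The 2 members reduced became 1 with no filter on low values, 0 with the prior following the mean, and 0 to 1 with a mouse left out. The 74 genes raised became 44 with no filter, 48 with a filter at 0.1 TPM, 14 with that prior, 125 with limma-voom, 327 with an unadjusted p, 120 with no minimum fold, and 0 to 63 with a mouse left out. The 68 genes reduced became 14 with that prior, 207 with limma-voom, 401 with an unadjusted p, and 0 to 78 with a mouse left out. Between AP and saline mice, the 3053 genes raised and 677 reduced became 1566 and 1221 with median-of-ratios scaling and 5552 and 1242 with no minimum fold, and 1983 to 3161 were raised with a mouse left out, the lowest without AP replicate 2. In polyI:C-AP against saline mice, 2838 and 500 became 1325 and 982 with that scaling and 5617 and 975 with no minimum fold, which also took the members raised from 3 to 5 by adding Muc1 and Cd24a.

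Mice with the same replicate number shared little deviation: deviations from the group means correlated at 0.0075 (saline and AP), 0.035 (AP and polyI:C-AP) and -0.0039 (saline and polyI:C-AP). The labels do not say whether the numbers pair the mice, and these correlations cannot decide it. With the replicate block, 2987 genes were raised and 659 reduced in AP against saline mice, and 62 were raised and 62 reduced in polyI:C-AP against AP mice, with the members' counts as before. Depth limits Tff1, Muc4 and Muc20, where 1 read is worth 0.0955 to 0.265 TPM at the median gene length.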
